A study of Mus musculus with 12 samples.

Results

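The 30 genes described here are the mouse Ube2 genes, which are named for the ubiquitin-conjugating (E2) enzymes, in RNA-seq of the prefrontal cortex after repeated cocaine. They were taken by a rule on names, chosen with earlier results of these data known. Every gene whose symbol starts with Ube2 and whose row was marked as testable in the tables of all 3 time points was taken. This gave 30 of the 14164 gene names testable at all 3. Male C57BL/6 mice (substrain J per the methods) aged 10 weeks received 20 mg/kg cocaine per day for 14 days, or saline as the control, and the tissue was taken at 2 h, at 24 h or at 7 d past the final injection. The daily injections were common to the cocaine and the saline control groups. Each of the 6 groups gave 2 libraries, each library pooled the tissue of 5 mice, and the 12 libraries were measured as mRNA of whole tissue.

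The deposited tables hold 1 pooled value per group and time point, in FPKM, the number of fragments divided by transcript length and by sequencing depth, a level that can be compared between genes. Values per library are not used here, so there is no spread between replicates, the depth behind each value is unknown, and no difference below carries a test. The difference between the groups of a time point is given as log2 of (cocaine FPKM + 1)/(saline control FPKM + 1), which is negative where cocaine was lower. A gene is counted as past the fold where its (FPKM + 1) values differed by at least 1.2-fold and its mean FPKM was at least 1. The same count over all named loci of the table is given beside it as the background. The 3 saline control groups are separate pools of mice, and their range is the only measure of how far a level can move without cocaine. The 3 tables were normalized separately, which enters any level set across them.

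Ubiquitin is a small protein that is joined to other proteins through a relay of enzymes. An E1 enzyme activates it, an E2 enzyme takes it over as a thioester, and an E3 ligase brings the loaded E2 to the substrate. The E2 often sets the kind of chain that is built: chains through lysine 48 of ubiquitin send proteins to the proteasome, and chains through lysine 63 serve in signaling, endocytosis and DNA repair. A few members of the family carry ubiquitin-like proteins such as NEDD8 and ISG15 in place of ubiquitin. In neurons, ubiquitination takes part in the turnover of synaptic proteins and receptors.

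At 7 d, 2 of the 29 Ube2 genes whose mean FPKM reached 1 were past the fold, both lower in cocaine, where 9.09% of all loci were. They were Ube2a and Ube2b. These are the closely related mammalian counterparts of yeast RAD6, which ubiquitinate histone H2B and the DNA clamp PCNA. They are the members on which the description turns, so a window before the start of each is shown, as read from the RefSeq promoter table (GRCm38.p6). The Ube2a window is chrX:36874045-36874294 on the plus strand and ends at the base before the start at 36874295. The Ube2b window is chr11:52000787-52001036 on the minus strand and ends at the base before the start at 52000786. Both are written 5′ to 3′ over 250 bases, with capitals for a GC box (GGGCGG, or CCGCCC on the other strand) in Ube2a and for an E-box (CACGTG) in Ube2b.
Ube2a: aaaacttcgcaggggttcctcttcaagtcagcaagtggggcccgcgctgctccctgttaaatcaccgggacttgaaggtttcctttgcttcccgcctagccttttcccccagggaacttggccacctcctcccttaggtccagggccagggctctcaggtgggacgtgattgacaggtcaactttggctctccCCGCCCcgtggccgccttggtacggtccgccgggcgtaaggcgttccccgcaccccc
Ube2b: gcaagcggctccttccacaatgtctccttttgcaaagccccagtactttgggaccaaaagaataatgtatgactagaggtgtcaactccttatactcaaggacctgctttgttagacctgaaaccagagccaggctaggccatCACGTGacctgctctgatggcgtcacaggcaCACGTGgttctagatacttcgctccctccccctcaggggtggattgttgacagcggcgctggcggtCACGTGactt

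The Ube2a window holds 1 GC box, 57 bases before the start, and the Ube2b window holds 3 E-boxes, the nearest 10 bases before the start. On both strands of the 250 bases before each start in the table, 4 motifs were searched, namely the cAMP response element (TGACGTCA), the E-box (CACGTG), the GC box (GGGCGG) and the CCAAT box (CCAAT); none of these contains another. Of the 30 genes, 23 matched the table, with 32 windows. The GC box was found in windows of 19 of the 23 genes (24 of 32 windows), and 32.7% of the 32851 windows in the table hold it. The E-box was found in Ube2b and Ube2q1 (2 of 32 windows, 6.02% of all), the cAMP response element in Ube2h alone (1 of 32, 1.55% of all) and the CCAAT box in Ube2d3, Ube2e1, Ube2f, Ube2l3 and Ube2t (5 of 32, 33.8% of all). A motif match describes these letters only. The windows of Ube2a and Ube2b printed above share no motif of the 4, although a second Ube2b window in the table, before the start at 52000491, holds 2 GC boxes.

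Ube2b lies on chromosome 11 and gave the largest difference of the family. Taken in the order 2 h, 24 h and 7 d, its level was 74.1, 74.2 and 89.7 FPKM in the saline control groups and 65.5, 70.4 and 68.7 FPKM in the cocaine groups. All 3 cocaine values were below all 3 saline control values, as in 4.55% of all genes. On the log2 scale the differences in the same order were -0.18, -0.08 and -0.38. The saline control values alone spanned 0.27 on the log2 scale, so the difference at 7 d exceeded their range and the other differences did not. The high value was that of the saline control group at 7 d, while the cocaine group at 7 d sat between the cocaine groups of 2 h and 24 h. The locus given for Ube2b is chr11:51949882-52286179, 336298 bases, against 19008 bases for the gene in RefSeq, and it covers 7 other protein-coding genes, which have rows of their own. Among these, Skp1a (257 FPKM in saline and 245 in cocaine at 7 d), a subunit of cullin-RING ligases, differed by -0.07 and Ppp2ca (84.5 and 83.7 FPKM), a phosphatase subunit, by -0.01. The low-level kinase gene Cdkl3 (5.01 and 3.55 FPKM) differed by -0.40.

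Ube2a lies on the X chromosome (chrX:36874358-36884215), and its locus covers no other protein-coding gene. In the same order its level was 25.5, 25.8 and 29.2 FPKM in saline control, against 26.1, 24.4 and 23.4 FPKM in cocaine. The differences were 0.03, -0.08 and -0.31, against a range of 0.19 over the 3 saline control groups. The saline control group at 7 d was the highest of the 6 values and the cocaine group at 7 d the lowest, while the other 4 values lay between them, the 2 h cocaine value above both saline control values of 2 h and 24 h. Among loci of the same level class (mean FPKM of 10 to 100) at 7 d, 3.46% had a lower ratio than Ube2b and 6.08% had a lower ratio than Ube2a.

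**Figure D1:**
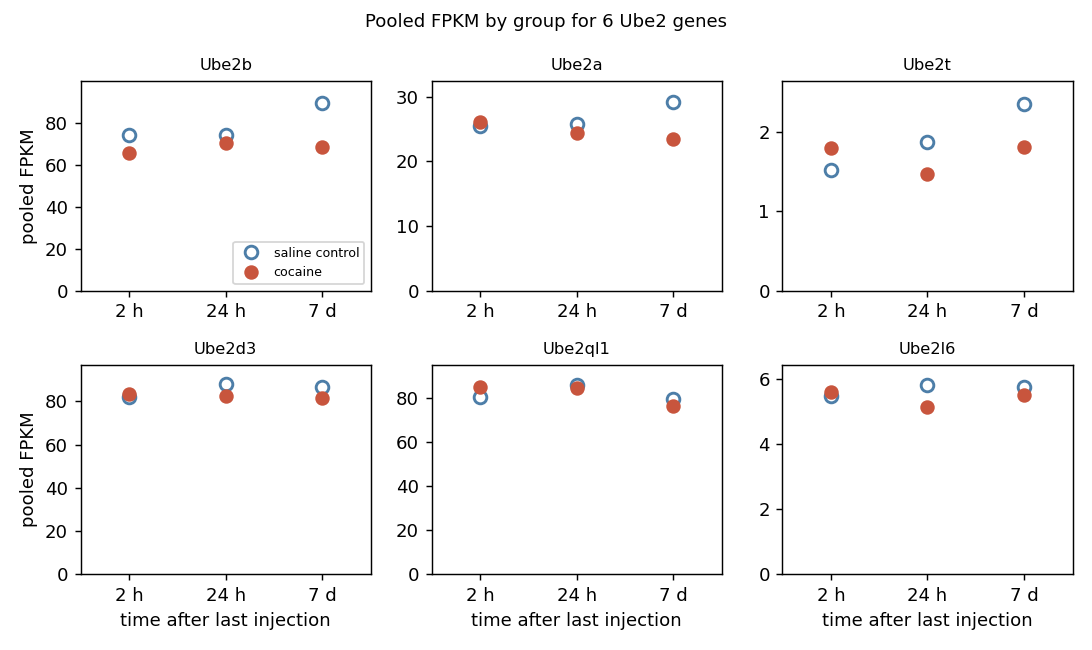
Pooled FPKM (y axis, from 0) by time after the last injection (x axis) in saline control (open circles) and cocaine (filled circles), for the 2 Ube2 genes past the fold and 4 of the highest and lowest members; each point is 1 pooled value with no error. Ube2b is lower in cocaine at each time point, and in Ube2b, Ube2a and Ube2t the saline control value at 7 d is the highest of the 6.

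Read against the background, 2 of 29 (6.90%) is no larger than the 9.09% of 13441 loci that were lower in cocaine past the fold at 7 d. In the other direction 0 of 29 Ube2 genes were past the fold at 7 d, against 5.00% of the loci. At 2 h, 0 of 29 Ube2 genes were past the fold either way, where 4.83% of 13367 loci were lower and 7.59% higher. At 24 h, 0 of 30 Ube2 loci were past it (Ube2k had a second row at this level), where 3.57% of 13840 loci were lower and 4.12% higher. Ube2b was the 1 of 29 genes whose 3 cocaine values all lay below the 3 saline control values, against 4.55% of 12622 genes, and 0 of 29 had all cocaine values above, against 3.42%. Each of these counts at a fold of 1.2 was under or near its background, so nothing particular to the family is read from them.

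Small differences of the members leaned to one side at 7 d. Of 29 Ube2 genes, 24 were lower in cocaine by any amount at 7 d (82.8%), where 52.3% of all loci and 59.0% of loci with a mean FPKM of 10 to 100 were lower. At a fold of at least 1.1, 13 of 29 Ube2 genes were lower at 7 d and 0 higher, where 22.8% of all loci were lower and 17.8% higher. The median difference was -0.11 on the log2 scale for the Ube2 genes, -0.01 for all loci and -0.03 for loci of 10 to 100 FPKM. At 2 h, 14 of 29 Ube2 genes were lower by any amount (48.3%, against 43.5% of the loci), with a median of 0.01 against 0.02. At 24 h, 14 of 30 loci were lower (46.7%, against 47.0% of the loci), with a median of 0.01 for the Ube2 genes and 0.01 for all loci. The members are not independent of each other, so these shares are descriptions of the family in 6 pooled groups.

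The members differed little in size. At 2 h the 5th and 95th percentiles of the differences were -0.15 and 0.13 for the Ube2 genes and -0.26 and 0.32 for all loci. At 24 h they were -0.13 and 0.09 for the Ube2 genes and -0.22 and 0.24 for all loci. At 7 d they were -0.29 and 0.06 for the Ube2 genes and -0.34 and 0.26 for all loci. The spread over the 3 saline control groups was also small, with a median SD of 0.06 on the log2 scale for the Ube2 genes, 0.10 for all genes and 0.09 for genes of 10 to 100 FPKM.

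**Figure D2:**
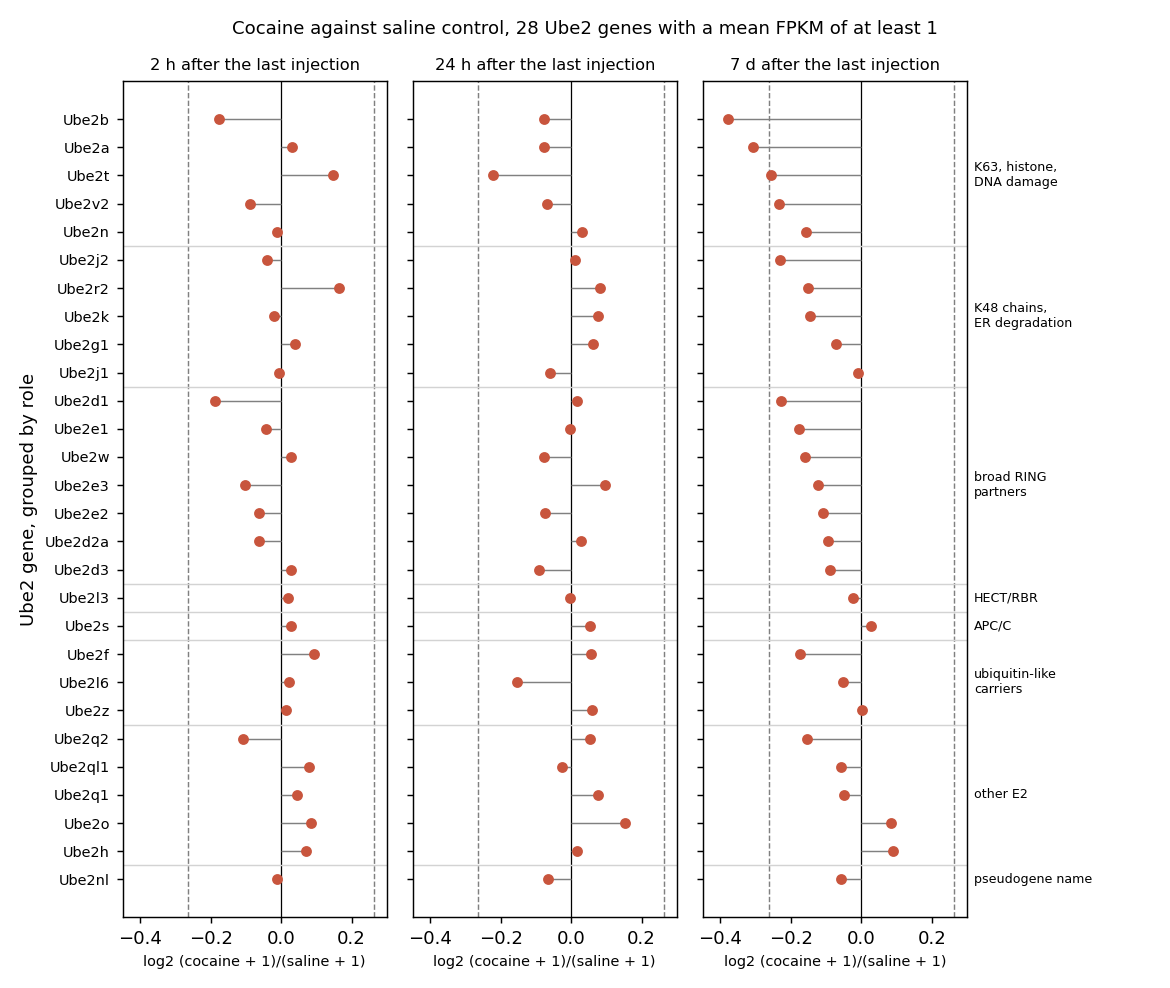
Log2 of (cocaine FPKM + 1)/(saline control FPKM + 1) (x axis) for 28 Ube2 genes (y axis, grouped by role) at each time point; dashed lines mark a 1.2-fold difference and each point is 1 pair of pooled values. Points lie on both sides of 0 at 2 h and 24 h, and 24 of the 28 lie left of 0 at 7 d, with Ube2b and Ube2a past the dashed line.

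The enzymes of lysine 63 chains, histone marks and DNA damage gave the lowest median of the role groups with more than 1 gene at 7 d. All 5 were lower in cocaine at 7 d, where 24 of the 29 Ube2 genes and 52.3% of all loci were. Whether the role groups differ from each other was not tested. Their median of -0.26 is the value of Ube2t, the gene of lowest level among them. The median was -0.01 at 2 h (3 of 5 lower) and -0.08 at 24 h (4 of 5 lower). Beside Ube2a and Ube2b, the group includes Ube2n, the Ubc13 enzyme that builds lysine 63 chains. It also includes Ube2v2, a catalytically inactive partner that Ube2n needs for this. Ube2v2 was at 42.4, 44.7 and 51.7 FPKM in saline control and 39.8, 42.6 and 43.8 FPKM in cocaine, so it was lower in cocaine at each time point. Its difference of -0.23 at 7 d was within the 0.28 spanned by its saline control values. Ube2n was at 52.3 FPKM in saline control and 46.8 in cocaine at 7 d, a difference of -0.16, and differed by -0.01 at 2 h and 0.03 at 24 h. Ube2t, the E2 of the Fanconi anemia pathway, was low throughout, with 1.53, 1.88 and 2.36 FPKM in saline control and 1.80, 1.47 and 1.82 FPKM in cocaine. It was just short of the fold at 7 d (-0.26), but its saline control values spanned 0.41, and it was higher in cocaine at 2 h (0.15) and lower at 24 h (-0.22).

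The broad partners of RING ligases are the Ube2d and Ube2e enzymes, which work with many E3 ligases, and Ube2w, which ubiquitinates protein N termini. Of these, 7 of 7 were lower in cocaine at 7 d (median -0.12), where 24 of the 29 Ube2 genes and 52.3% of all loci were. At 2 h 5 of 7 of them were lower, and at 24 h 4 of 7. Within them Ube2d1 differed most, with 34.8 FPKM in saline control and 29.6 in cocaine at 7 d (-0.23), 34.5 and 30.2 at 2 h (-0.19) and 29.4 and 29.8 at 24 h (0.02). The saline control value of Ube2d1 at 24 h was the lowest of its 6 values, and both groups at 24 h sat with the cocaine groups of 2 h and 7 d. Ube2e1 was at 78.7 FPKM in saline control and 69.5 in cocaine at 7 d (-0.18), and both were above all of its values at 2 h and 24 h (62.2 to 64.1 FPKM). Its locus also covers Rpl15, a ribosomal protein gene with a row of its own, which was at 174 FPKM in saline control and 134 in cocaine at 7 d (-0.37). Ube2w was at 33.8 and 30.2 FPKM (-0.16), Ube2e3 at 53.9 and 49.4 (-0.12), Ube2e2 at 64.9 and 60.1 (-0.11), Ube2d2a at 61.2 and 57.2 (-0.09) and Ube2d3 at 86.9 and 81.7 (-0.09).

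Ube2d3 was the most abundant member by the saline control value at 24 h. It was at 81.9, 87.9 and 86.9 FPKM in saline control and 83.6, 82.4 and 81.7 FPKM in cocaine, and its values overlapped between the groups. The differences of 0.03, -0.09 and -0.09 were all within the 0.10 spanned by its saline control values.

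Another group holds the enzymes that build lysine 48 chains, or that serve degradation of proteins from the endoplasmic reticulum. In it 5 of 5 were lower in cocaine at 7 d (median -0.15), where 24 of the 29 Ube2 genes and 52.3% of all loci were. At 2 h 3 of 5 were lower, and at 24 h 1 of 5. Ube2j2, an E2 of the endoplasmic reticulum membrane, was at 27.4 FPKM in saline control and 23.3 in cocaine at 7 d (-0.23), beyond its saline control range of 0.13. Ube2r2, a CDC34-type partner of cullin-RING ligases, was higher in cocaine at 2 h (36.6 and 41.1 FPKM, 0.16) and 24 h (34.6 and 36.7 FPKM, 0.08) and lower at 7 d (36.9 and 33.1 FPKM, -0.15). The 0.16 of Ube2r2 at 2 h was the largest positive difference of the family at that time point. Ube2k, which extends lysine 48 chains, was at 39.7 and 35.8 FPKM at 7 d (-0.15), Ube2g1 at 16.3 and 15.5 (-0.07) and Ube2j1, the second E2 of the endoplasmic reticulum membrane, at 27.1 and 26.9 (-0.01).

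Among the carriers of ubiquitin-like proteins, 2 of 4 were lower in cocaine at 7 d, with a median of -0.03. Ube2f, which carries NEDD8, was at 21.6 FPKM in saline control and 19.1 in cocaine at 7 d (-0.17), after being higher in cocaine by 0.09 at 2 h and 0.06 at 24 h. Ube2z, which works with the E1 Uba6, was at 21.0 FPKM in both groups. Ube2l6, which carries ISG15, was at 5.48, 5.82 and 5.74 FPKM in saline control and 5.59, 5.12 and 5.50 in cocaine, and its -0.15 at 24 h exceeded the 0.07 spanned by its saline control values.

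The remaining enzymes were mixed at 7 d. Ube2h, which has been tied to histone ubiquitination and to the CTLH ligase, and Ube2o, a large enzyme that acts as E2 and E3 at once, were higher in cocaine at all 3 time points. Ube2o was at 26.7, 28.6 and 24.0 FPKM in saline control and 28.3, 31.9 and 25.5 FPKM in cocaine. Of its differences of 0.08, 0.15 and 0.08, the one at 24 h was the largest positive one of the family there. Its saline control values spanned 0.24, more than any of these differences. Ube2h was at 19.6 FPKM in saline control and 20.9 in cocaine at 7 d, and its 0.09 was the largest positive difference at 7 d. Ube2q2 was at 22.8 and 20.3 FPKM (-0.15) and Ube2q1 at 23.4 and 22.6 (-0.05) at 7 d. The saline control values of Ube2q1 differed by less than 0.01 on the log2 scale, the narrowest of the family. Ube2s, which extends chains on the anaphase-promoting complex, was at 57.5 and 58.6 FPKM (0.03), and Ube2l3, the partner of HECT and RBR ligases, at 36.0 and 35.4 (-0.02).

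Ube2ql1 was the member with the second highest level in saline control at 24 h. It was at 80.4, 85.9 and 79.6 FPKM in saline control and 85.0, 84.3 and 76.4 FPKM in cocaine, and the groups overlapped. Both groups of 7 d were below the other 4, and the difference between them was -0.06.

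The names Ube2cbp and Ube2nl do not stand for known E2 enzymes. Ube2cbp encodes an E2-binding protein with E3 activity, and was the lowest of the 30 with 0.737, 0.872 and 0.629 FPKM in saline control and 0.688, 0.687 and 0.515 FPKM in cocaine. It was left out of the counts above, since its mean FPKM was under 1 in each table. Ube2nl is listed as a pseudogene of 1238 bases in RefSeq, but the locus given for it in the table of 7 d spans 88081 bases, so what its 21.8 FPKM in saline control and 20.9 in cocaine at 7 d (-0.06) measure cannot be told from the name.

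**Figure D3:**
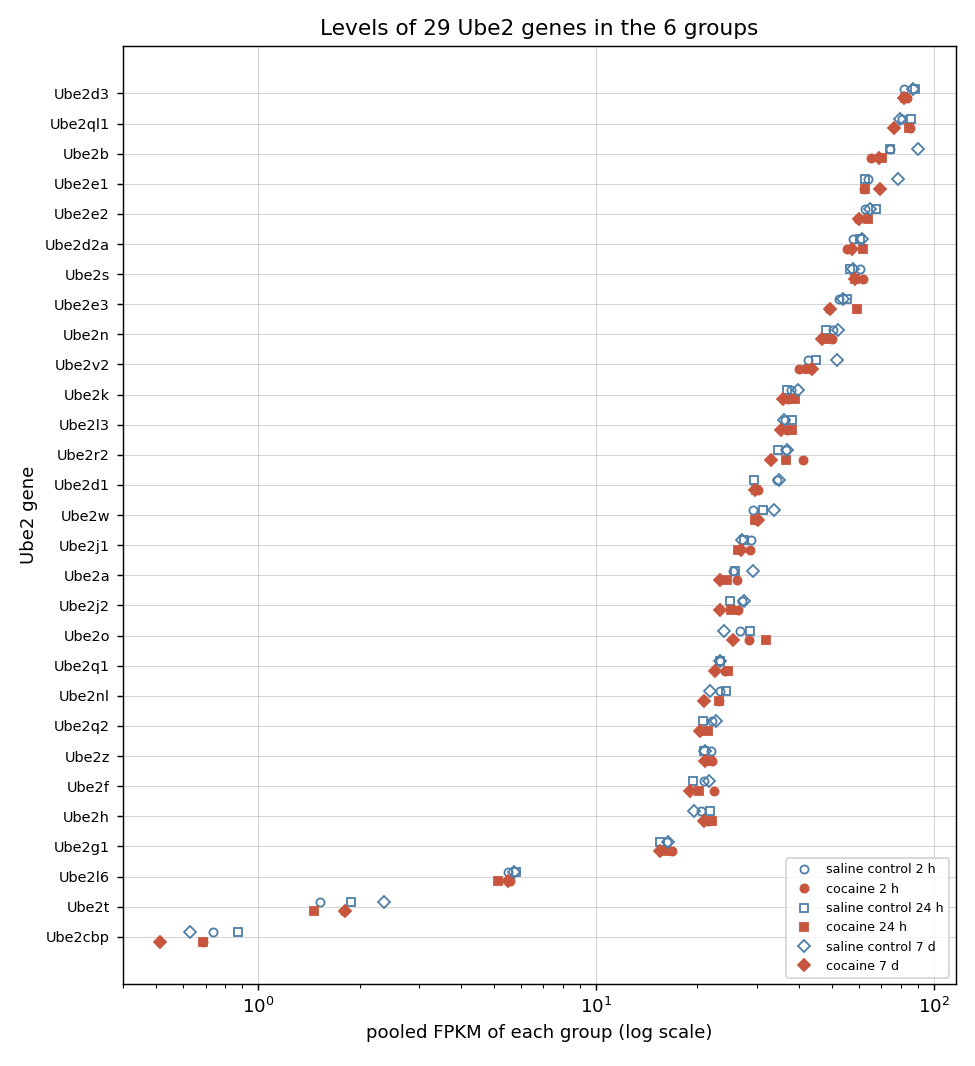
Pooled FPKM (x axis, log scale) of 29 Ube2 genes (y axis, ordered by their mean over the saline control groups) in saline control (open blue) and cocaine (filled red) at 2 h (circles), 24 h (squares) and 7 d (diamonds). Most members lie between 15 and 90 FPKM, Ube2l6, Ube2t and Ube2cbp lie below, and the 6 values of a gene lie close together compared with the distance between genes.

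Genes differed in level far more than groups did. By the mean of the saline control groups, Ube2d3, Ube2ql1 and Ube2b led the family, with Ube2e1, Ube2e2, Ube2d2a and Ube2s among those after them. Over the 3 saline control groups the ranges of Ube2d3 (81.9 to 87.9 FPKM), Ube2ql1 (79.6 to 85.9) and Ube2b (74.1 to 89.7) overlapped, so their order is not settled. Clear gaps separated Ube2g1 (15.5 to 16.3 FPKM) from Ube2l6 (5.48 to 5.82), Ube2l6 from Ube2t (1.53 to 2.36) and Ube2t from Ube2cbp (0.629 to 0.872).

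Some genes of the family are not among the 30. Another 7 names had only rows that were not marked as testable and lay below 0.5 FPKM, among them Ube2c, the E2 that starts chains on the anaphase-promoting complex, at 0.126 to 0.226 FPKM in saline control. A further 3 loci list a Ube2 gene after a neighbor, so their FPKM belongs to several genes and they were not counted. The locus of Chmp2a and Ube2m, a NEDD8 carrier, was at 227 FPKM in saline control and 190 in cocaine at 7 d (-0.26), just short of the fold. The locus of Sumo3 and Ube2g2 was at 99.3 and 95.3 FPKM (-0.06), and that of Gm20431, Tmem189 and Ube2v1, the other partner of Ube2n, was at 129.8 FPKM in cocaine and differed by 0.00. The members just inside the fold at 7 d were Ube2a (-0.31) and Ube2b (-0.38), and just outside it were Ube2t (-0.26), Ube2v2, Ube2j2 and Ube2d1 (each -0.23).

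The side on which the 7 d values lay was traced in each group. Against the mean of the 2 h and 24 h groups, the saline control group at 7 d differed by a median of 0.04 for the Ube2 genes and -0.01 for all 12622 genes, and it was higher in 19 of 29 (65.5%) against 47.2%. The cocaine group at 7 d differed by a median of -0.06 for the Ube2 genes and -0.04 for all genes, and it was lower in 22 of 29 (75.9%) against 61.8%. The saline control value at 7 d was the highest of the 6 values in 11 of 29 Ube2 genes (37.9%, against 25.9% of all genes and 31.4% of genes with 10 to 100 FPKM). The cocaine value at 7 d was the lowest in 12 of 29 (41.4%, against 17.5% and 20.6%). Ube2a, Ube2n, Ube2k, Ube2j2 and Ube2q2 showed both. In 11 of 29 genes (37.9%) the difference at 7 d exceeded the range over the 3 saline control groups, where 23.7% of all genes did so.

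**Figure D4:**
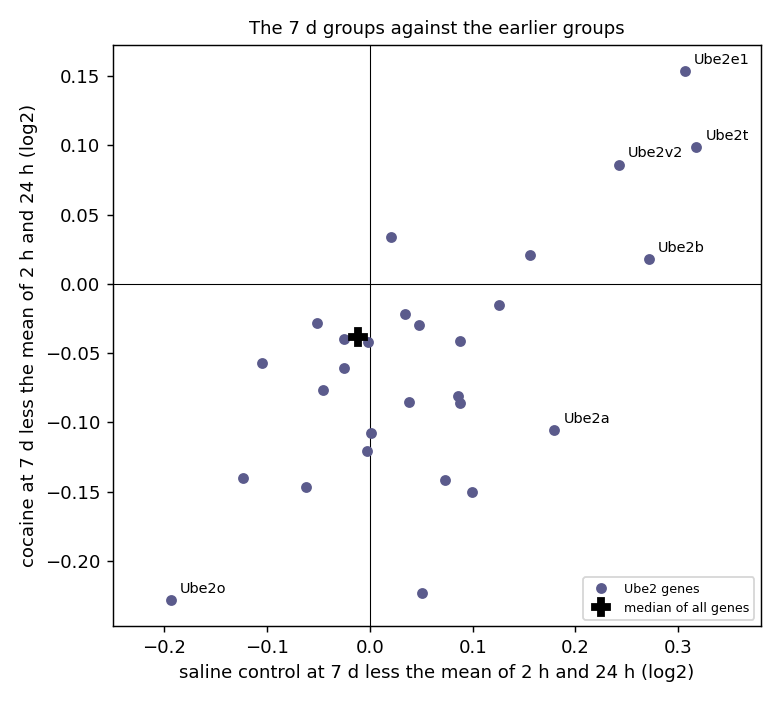
Level at 7 d less the mean of 2 h and 24 h, on the log2(FPKM + 1) scale, in saline control (x axis) and cocaine (y axis) for 28 Ube2 genes (points) and the median of all genes (cross). Ube2b, Ube2v2, Ube2t and Ube2e1 lie far to the right, that is high in the saline control group at 7 d, while Ube2a lies right of and below 0.

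The 6 genes lower in cocaine at all 3 time points were Ube2b, Ube2e1, Ube2e2, Ube2v2, Ube2j1 and Ube2nl, and the 4 higher at all 3 were Ube2h, Ube2o, Ube2s and Ube2z. Another 4 were higher in cocaine at 2 h and 24 h and lower at 7 d (Ube2r2, Ube2f, Ube2g1 and Ube2q1). How many of all genes showed these patterns was not counted, so nothing particular to the family is read from them. The 29 genes share libraries within a time point. Across them, Pearson's r between the differences was -0.01 for 2 h and 24 h. It was 0.38 for 2 h and 7 d and 0.32 for 24 h and 7 d. The same was not computed over all genes.

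The differences at 7 d moved with transcript length over the whole table. Across 11044 loci, Spearman's rho between the difference and the length of the longest protein-coding transcript was 0.48, with short transcripts lower in cocaine. Over the 29 Ube2 genes it was 0.22, and their median length was 2755 nt against 3055 nt for all loci. After the trend over length was taken out, the median of the Ube2 genes at 7 d was -0.07, against -0.01 for loci with 10 to 100 FPKM. Of the Ube2 genes 23 of 29 were then below 0 (79.3%), 22 of them also before. The step sets the median of each length group to 0, so the 50.0% of all loci below 0 is fixed by it. Of loci with 10 to 100 FPKM, 54.4% were below 0. Ube2b (1792 nt) went from -0.38 to -0.31, Ube2a (1662 nt) from -0.31 to -0.21, which is no longer past the fold, and Ube2t (1116 nt) from -0.26 to -0.10. Ube2v2 (4207 nt) went from -0.23 to -0.27 and so passed the fold, where 3.41% of all loci were lower past it after this step. Ube2j2, Ube2f, Ube2k and Ube2n, with transcripts of 3483 to 4893 nt, came to between -0.25 and -0.20. What part length has in the values of single genes was not tested.

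**Figure D5:**
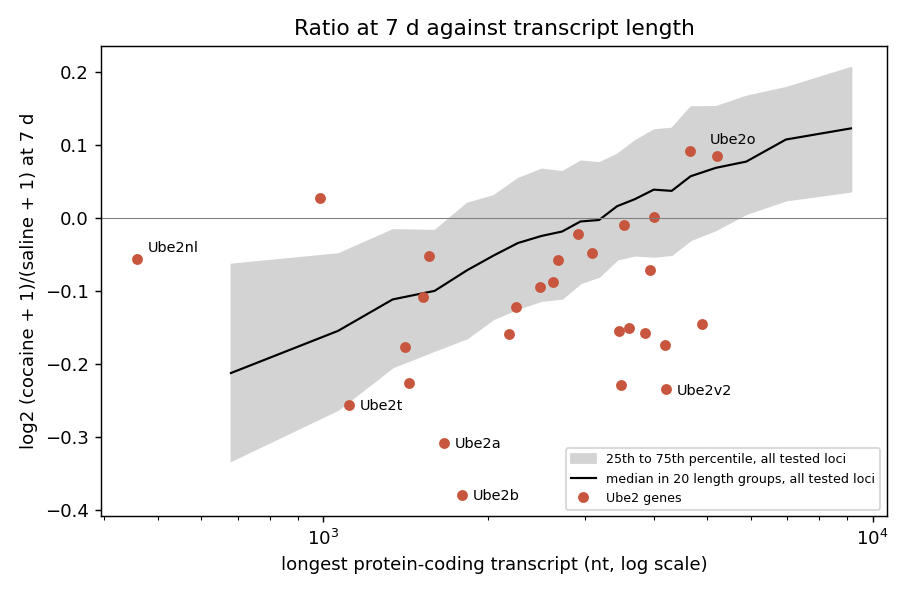
Log2 of (cocaine FPKM + 1)/(saline control FPKM + 1) at 7 d (y axis) against the length of the longest protein-coding transcript (x axis, nt, log scale). The line is the median of all tested loci in 20 length groups, grey their 25th to 75th percentile, and points are 28 Ube2 genes, most of which lie below the line, with Ube2b, Ube2a and Ube2v2 well below the grey band.

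The partners of the E2 enzymes were counted in the same way at 7 d. Of the modifiers that E2 enzymes carry, 3 of 8 were past the fold and lower in cocaine, where 9.09% of all loci were, with a median of -0.21. Their median transcript length was 1133 nt, and loci in the length group around 1065 nt had a median of -0.15. Among them were Rps27a (267 and 206 FPKM, -0.37), which encodes ubiquitin fused to a ribosomal protein, and Ufm1 (23.0 and 19.0 FPKM, -0.27). Of the E1 enzymes, 1 of 8 was past it, Nae1 of the NEDD8 E1 (21.6 and 16.8 FPKM, -0.34), with a median of -0.06. Other proteins with an E2-like fold gave 0 of 6, with a median of -0.13. Cullin-RING cores gave 1 of 12, Tceb2 or elongin B (391 and 271 FPKM, -0.52), and the anaphase-promoting complex 1 of 14, Anapc10 (3.46 and 2.55 FPKM, -0.33), with medians of -0.12 and -0.10. The transcript of Tceb2 has 494 nt, and loci in the length group around 680 nt had a median of -0.21.

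The lists of other E3 ligases, of SUMO enzymes and of deubiquitinases had medians near or above 0 at 7 d. The RING, HECT and RBR ligases had a median of 0.09, with 0 of 30 past the fold. Of these ligases 8 of 30 were below 0, where 52.3% of all loci were. Their median transcript length was 5090 nt, and loci in the length group around 5184 nt had a median of 0.07. The ligases and proteases of SUMO had a median of 0.00 with 0 of 13 past the fold. Of the deubiquitinases 3 of 26 were lower past the fold, where 9.09% of all loci were, and the median of the list was 0.00. The 3 were Uchl3 (26.1 FPKM in saline control, -0.37), Uchl1 (590.3 and 465.6 FPKM, -0.34) and the proteasome subunit Psmd14 (47.1 and 39.0 FPKM, -0.27). Their transcripts had 1146 to 1541 nt, against a median of 4009.5 nt for the list. Loci in the length groups around 1065, 1339 and 1596.5 nt had medians of -0.15, -0.11 and -0.10. Over all 8 lists of partners together, 9 of 117 genes (7.69%) were lower past the fold, against the 9.09% of all loci. None of these lists had a member higher in cocaine past the fold at 7 d, where 5.00% of all loci were.

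At 2 h, 1 of 117 partners (0.855%) was lower past the fold and 4 (3.42%) were higher, where 4.83% and 7.59% of all loci were. Of these, Isg15 (2.55 and 3.77 FPKM, 0.43), the E1 gene Uba6 (2.34 and 3.24 FPKM, 0.34), the ligase Cbl (3.41 and 4.47 FPKM, 0.31) and the deubiquitinase Otub2 (11.8 and 17.5 FPKM, 0.54) were higher in cocaine and the deubiquitinase Usp2 (25.7 and 16.3 FPKM, -0.62) was lower. At 24 h, 0 of 116 partners were lower and 2 (1.72%) higher, where 3.57% and 4.12% of all loci were. Of these, Isg15 (2.44 and 4.76 FPKM, 0.74) and the SUMO protease Senp1 (1.75 and 2.53 FPKM, 0.36) were higher. Ube2l6, the carrier of ISG15, differed by 0.02 and -0.15 at these time points, and Ube2z, the partner of Uba6, by 0.01 and 0.06.

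The tissue was bulk cortex, in which fewer cells of a type and less RNA per cell cannot be told apart. Markers of neurons and of cortical excitatory neurons were high in every group, the latter with a summed level of 541 to 596 FPKM in saline control and 549 to 611 FPKM in cocaine. At 7 d 1 of 4 excitatory markers was lower past the fold (Neurod6), where 9.09% of all loci were. Higher past it were 1 of 3 astrocyte markers (Gfap), 1 of 3 endothelial markers (Flt1) and 1 of 3 red blood cell markers (Hba-a1). Of all loci, 5.00% were higher past it. None of the 3 inhibitory neuron, 3 oligodendrocyte and 3 microglia markers was past the fold at 7 d. The microglia markers went both ways (Cx3cr1 0.25, Csf1r 0.19 and Aif1 -0.23). Of 2 striatal markers whose mean FPKM reached 1, Adora2a was higher past it (0.805 and 1.35 FPKM). Drd1a, under that level, was lower (0.858 and 0.760 FPKM, -0.08). The choroid plexus marker Ttr was higher (0.284 and 6.54 FPKM, 2.56). Its list summed to 1.33 FPKM in saline control and 7.37 in cocaine. In that list Folr1 was lower (0.668 and 0.290 FPKM, -0.37) and Kl higher (0.376 and 0.531 FPKM, 0.15), both with a mean FPKM under 1. At 24 h Gfap, Aqp4 and the myelin gene Mbp were lower past the fold, where 3.57% of all loci were. At 2 h all 3 red blood cell markers were higher past it (summed level 189 and 289 FPKM), where 7.59% of all loci were. Ttr was lower in cocaine past the fold at 2 h (1.90 and 0.461 FPKM, -0.99) and at 24 h (1.80 FPKM in saline control, -0.42), opposite to 7 d. Of all loci, 4.83% were lower past it at 2 h and 3.57% at 24 h. The part of these in the values of the Ube2 genes was not tested.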

How the data were processed

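RNA of mouse prefrontal cortex was sequenced in 12 libraries, 2 for each of 6 groups. The processing notes of the submitters name CASAVA 1.8.2, Trimmomatic 0.32, TopHat2 2.0.12, Cufflinks 2.2.1 and Cuffdiff. The authors trimmed and aligned the reads and deposited 1 table per time point with 1 pooled FPKM per group and locus. The tables also hold the authors' fold changes, test statistics, p-values and q-values, which were not used here. No counts per library were used, so no test or interval was computed. The paper gives the reads per replicate only as a range, so the depth of each group is unknown. The first value column was taken as saline control, because the study's supplementary column titles gave that order for 448 of 453, 14 of 14 and 520 of 528 genes at 2 h, 24 h and 7 d.

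Rows with a gene name and a status of OK were used. Where a gene had several rows (6 more rows of 5 Ube2 genes), the row with the higher level stands for it in the lists of genes. Differences are log2 ratios with a pseudocount of 1, for rows whose mean FPKM reached 1, and the fold threshold was 1.2. Positions are 1-based on GRCm38, whose RefSeq annotation overlapped same-named loci in 97.8% to 99.8%, although the methods name another build. Transcript lengths came from GENCODE M1, and the trend was the median in 20 length groups. Genes named with all 6 values were those past the fold and the 3 highest and 3 lowest by saline control level at 24 h, and the others were given by role; all 6 values of Ube2v2, Ube2o, Ube2d1 and Ube2r2 were added after their values were seen. The members and the gene lists were chosen with earlier results of these data known. Some genes that enter the counts are not reported here by name. Alternatives were another pseudocount, other level and fold thresholds, centring and the length trend. The steps were tested on simulated data with planted differences larger than any of the Ube2 genes, so the sizes reported here were not covered. Python 3.11.15, pandas 2.3.3, numpy 2.4.6, scipy 1.17.1 and matplotlib 3.10.9 were used.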

Additional observations from a re-analysis of the deposited data

How the results depend on the processing

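No paired analysis was possible because the deposited tables hold 1 pooled value per group, and for the same reason no replicate could be left out. The count of Ube2 genes past the fold depended on the fold. At a fold of at least 1.1 the 2 h comparison gave 4 genes, 2 lower and 2 higher in cocaine. Of all loci at 2 h, 13.8% were lower and 20.9% higher at that fold. The 24 h comparison gave 3 genes, 2 lower and 1 higher, where 11.9% of all loci were lower and 13.4% higher. The 7 d comparison gave 13, all lower in cocaine (13 of 29, against 22.8% of all loci). At a fold of at least 1.3 the count was 1 at 7 d, Ube2b, where 3.90% of all loci were lower. A pseudocount of 0.1 gave 1 gene at 24 h, Ube2t, and 3 at 7 d with Ube2t added. All of these were lower in cocaine, where 5.75% of all loci were at 24 h and 11.9% at 7 d. With the length trend taken out the count at 7 d was 2, but Ube2v2 stood in place of Ube2a, and the share of all loci that were lower went from 9.09% to 3.41%. The median difference at 7 d ran from -0.11 to -0.07 over its alternatives and was below 0 in each, while those at 2 h and 24 h stayed within 0.02 of 0.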
